A study of Mus musculus with 32 samples.

Results

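The chemokines and chemokine receptors of mouse liver were followed across a gavage of palm oil and an insulin clamp. The genes were chosen by name alone: every symbol of the platform annotation made of Ccl, Cxcl, Ccr or Cxcr and a number, together with Cx3cl1 and Cx3cr1, where a probe set carried 1 symbol. This gave 49 genes, of which 33 are ligands and 16 are receptors, out of 22180 genes measured.

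RNA of whole liver from 14-week-old male wild-type C57BL/6NTac mice was hybridised to Affymetrix whole-transcript arrays, with 1 array for each of 32 mice. The groups were palm oil clamped (9 mice), palm oil basal (9), control clamped (7) and control basal (7). All mice had fasted for 10 h before a gavage of palm oil at 2 g/kg or, as the control, water. Basal mice were killed under isoflurane 6 h after the gavage. Clamped mice carried a jugular vein catheter placed days earlier. At 6 h they received a glucose tracer for 110 min and then insulin at 15 pmol/kg/min with glucose given to hold blood glucose steady, and they were killed with ketamine and xylazine. A clamped and a basal mouse thus differed in insulin, surgery, tracer, anaesthetic, time since the gavage and animal number (15 to 32 for clamped, 33 to 52 for basal mice), and these cannot be told apart. In whole liver, more cells of a type and more RNA per cell cannot be told apart either.

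Chemokines are small secreted proteins that guide white blood cells through G-protein-coupled receptors on those cells. CXC ligands with a Glu-Leu-Arg motif (ELR ligands, such as Cxcl1 and Cxcl2) attract neutrophils through Cxcr2, the interferon-induced ligands Cxcl9, Cxcl10 and Cxcl11 attract T and NK cells through Cxcr3, and CC ligands such as Ccl2 and Ccl3 attract monocytes and macrophages. In liver, hepatocytes, Kupffer cells, endothelium and stellate cells can all release them, largely under NF-kappaB after interleukin-1 or TNF.

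Values are the authors' normalised log2 expression values, on which a difference of 1 is a 2-fold difference in signal. Probe sets differ in brightness, so that the value of a gene is set only against its own value in other mice. The 7 hepatocyte markers averaged 10.28 to 10.9 over the 32 arrays. Of the 49 genes, 25 lay below the median gene (1.83) in their mean over all arrays, among them all 9 CC receptors, and their differences can be understated near this floor. That mean includes the clamped arrays. Cxcr2 and Ccl3 lay above 1.83 in it but had basal medians below 1.83 in both gavages, and the same limit holds for them. Pancreatic acinar markers averaged over 6 on 2 palm oil clamped, 5 palm oil basal, 1 control clamped and 4 control basal arrays, and the 7 basal arrays from animal 44 upwards had a narrower spread of values than the rest. For the 49 genes, calls that changed without these arrays are given with the counts or beside the genes concerned. For genes outside the family, such as cell markers and inducers, single calls were not followed without these arrays.

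The upstream sequences of 4 ligand genes on chromosome 5 are shown because they carry a kappaB-like sequence, the kind of site NF-kappaB binds, while their transcripts did not all pass the test. Each is the 180 bases before the RefSeq start on GRCm38.p6, read along the gene: chr5:90891065-90891244 for Cxcl1, chr5:90903719-90903898 for Cxcl2 and chr5:90785921-90786100 for Cxcl3, all on the plus strand, and chr5:92348890-92349069 on the minus strand for Cxcl10. Capitals mark the match to GGANNTTCC.
Cxcl1: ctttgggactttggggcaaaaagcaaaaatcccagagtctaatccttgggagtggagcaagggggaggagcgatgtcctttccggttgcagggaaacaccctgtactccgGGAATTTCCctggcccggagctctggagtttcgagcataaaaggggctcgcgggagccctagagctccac
Cxcl2: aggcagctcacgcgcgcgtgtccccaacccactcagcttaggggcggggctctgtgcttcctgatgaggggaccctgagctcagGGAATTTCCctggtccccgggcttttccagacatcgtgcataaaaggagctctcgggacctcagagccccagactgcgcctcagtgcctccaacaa
Cxcl3: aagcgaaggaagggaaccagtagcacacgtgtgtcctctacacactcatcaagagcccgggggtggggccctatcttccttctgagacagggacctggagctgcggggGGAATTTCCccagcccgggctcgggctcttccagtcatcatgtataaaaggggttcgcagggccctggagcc
Cxcl10: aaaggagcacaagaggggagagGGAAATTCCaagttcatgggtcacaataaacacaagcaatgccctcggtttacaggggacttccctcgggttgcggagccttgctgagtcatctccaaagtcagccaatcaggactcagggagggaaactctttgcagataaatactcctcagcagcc

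Cxcl1, Cxcl2 and Cxcl3 hold the same 9 letters, GGAATTTCC, beginning at -70, -96 and -72 from the start, and Cxcl10 holds GGAAATTCC at -158. Of 35 members with a promoter window of 300 bases in the RefSeq table, 7 held GGANNTTCC on either strand, against 4.26% of all 32851 windows. Of the 10 genes that passed the test in a clamp comparison, 8 had a window, and 2 of these, Cxcl1 and Cxcl2, held the motif. The AP-1-like TGANTCA was in 7 of the 35 windows (7.81% of all windows) and the STAT-like TTCNNNGAA in 3 (8.3%), with neither in the 8, and no matches of different motifs overlapped in a member. A match is a description of letters and was not tested as a binding site.

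The clamp question was whether liver chemokine transcripts differed between clamped and basal mice, asked separately after palm oil and after water. In palm oil mice, 8 of the 49 genes rose and 2 fell, where rose and fell mean an adjusted p under 0.05 in limma, a linear model fitted to all 22180 genes. Over all genes 3.76% rose and 3.8% fell in that comparison. In control mice the same 8 genes rose, against 4.66% of all genes, and none fell, against 4.09% of all genes. At an unadjusted p under 0.05, 12 of the 49 genes were higher and 5 lower in palm oil mice, against 8.76% and 9.82% of all genes, and 14 were higher and 3 lower in control mice, against 10.2% and 10.7%.

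These counts depended on the arrays used, and so did those over all genes. Without the 12 arrays over 6 in acinar markers, 4 genes rose in palm oil mice (Cxcl1, Cxcl13, Cxcr2 and Cxcr4), against 1.31% of all genes, and 3 fell, Cxcr6 joining Cxcl11 and Cxcl12 (-0.50, adjusted p = 0.0475, limma), against 2.01%. In control mice 3 rose at that setting (Cxcl1, Cxcl13 and Ccl6), against 2.44%. With basal animals 44 and above left out, 7 rose in palm oil mice, against 2.39%, and 3 fell, Ccl27a joining (-0.65, adjusted p = 0.0206, limma), against 3.43%. In control mice 3 rose there (Cxcl1, Cxcl13 and Cxcr2), against 1.79%, and Cxcl11 fell, against 2.84%. Without control clamped replicate 7, 5 rose in control mice (Cxcl1, Cxcl2, Cxcl13, Ccl6 and Cxcr2), against 3.77%.

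The 8 genes that rose were the ELR ligands Cxcl1 and Cxcl2, the B cell attractant Cxcl13, the monocyte attractant Ccl2, the macrophage products Ccl3 and Ccl6, and the receptors Cxcr2 and Cxcr4. The 2 that fell after palm oil were Cxcl12 and Cxcl11. The median difference of all 49 genes was 0.04 in palm oil mice and 0.05 in control mice, beside -0.02 over all genes in each, and 39 of the 49 genes passed in no comparison. The 2 clamp comparisons share no array, and 41 of the 49 genes (83.7%) had the same sign in both, against 67.9% of all genes.

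**Figure D1:**
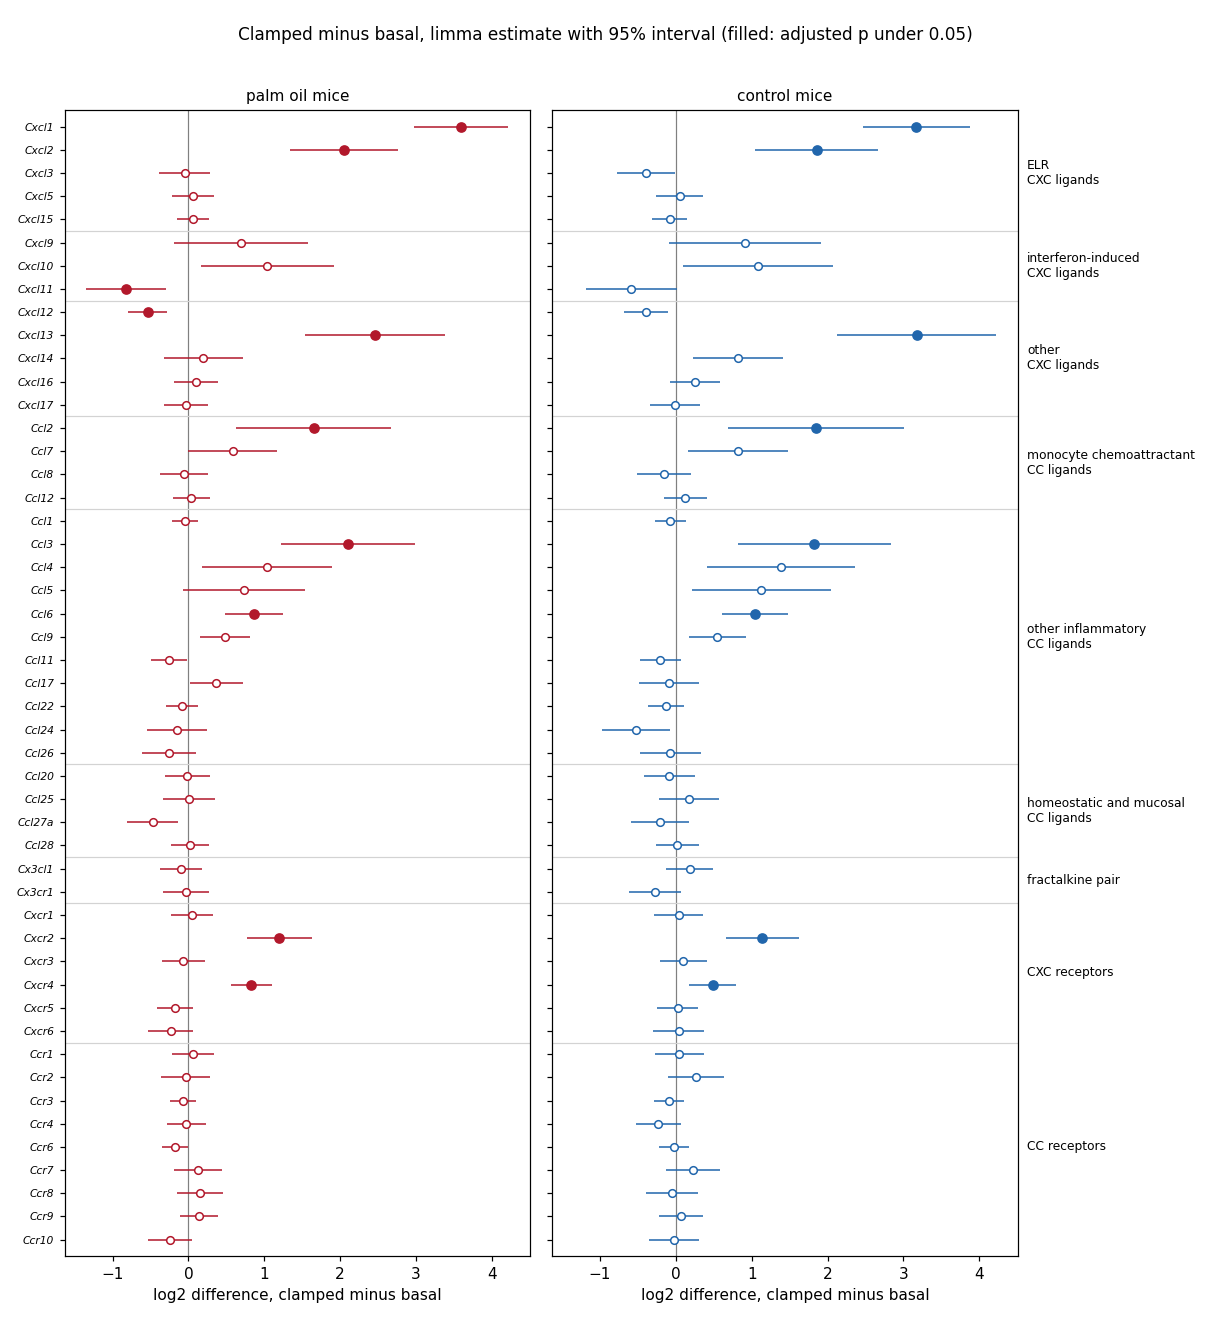
Clamped minus basal log2 difference of each of the 49 genes in palm oil mice (left) and control mice (right), with 95% intervals from limma, grouped by role; filled points have an adjusted p under 0.05. The 8 genes that rose in both panels lie among the CXC and CC ligands and the CXC receptors, and all 9 CC receptors have open points near 0.

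Cxcl1, the main neutrophil attractant among the ELR ligands of the mouse and a product of stressed hepatocytes, was the clearest of the family. It ranged from 8.29 to 9.59 (median 8.86) in palm oil clamped mice and from 3.93 to 6.89 (median 5.01) in palm oil basal mice. Its values in control mice ranged from 8.26 to 9.44 (median 8.90) clamped and from 4.50 to 7.56 (median 5.51) basal. Every clamped mouse lay above every basal mouse of its gavage, and the clamped values of the 2 gavages covered the same range. The rise was 3.59 ± 0.31 in palm oil mice (12.1-fold, adjusted p = 4.46e-10, limma) and 3.17 ± 0.35 in control mice (9.01-fold, adjusted p = 1.2e-07), where ± gives the standard error throughout. Set against the basal mice numbered under 44 and those numbered 44 or higher in turn, it was 3.25 and 4.28 in palm oil mice and 3.41 and 2.99 in control mice.

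Cxcl2, the ELR ligand made chiefly by macrophages and neutrophils, also rose in both. It ranged from 3.00 to 5.60 (median 3.76) in palm oil clamped mice and from 1.27 to 2.88 (median 1.80) in palm oil basal mice, with no overlap. In control mice the gene ranged from 2.85 to 6.28 (median 3.94) clamped and from 1.54 to 3.17 (median 2.52) basal, where 5 of 7 clamped mice lay above all basal mice. The rise was 2.05 ± 0.35 (4.13-fold, adjusted p = 0.00011, limma) in palm oil mice and 1.85 ± 0.40 (3.62-fold, adjusted p = 0.0018) in control mice. Without the arrays over 6 in acinar markers it was 1.87 and 1.90 with adjusted p = 0.0611 and 0.0813, so that the sizes held and the calls did not, and without basal animals 44 and above it was 1.57 in control mice (adjusted p = 0.104).

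The other 3 ELR ligands, Cxcl3, Cxcl5 and Cxcl15, did not pass the test. Cxcl3 ranged from 0.371 to 0.990 in palm oil clamped mice and from 0.457 to 1.90 in palm oil basal mice, and its clamped minus basal difference was -0.05 ± 0.16 there and -0.39 ± 0.18 in control mice. Cxcl5, a product of epithelial cells, differed by 0.06 ± 0.13 in palm oil mice and 0.05 ± 0.15 in control mice. All 3 lay below the median gene (1.83) in their mean over all arrays, and Cxcl1 and Cxcl2 lay above it. That mean includes the clamped arrays, in which Cxcl1 and Cxcl2 were high. The palm oil basal median of Cxcl2 (1.80) was itself below the median gene, so this cut does not show that signal separates the members.

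Cxcl13, which draws B cells through Cxcr5, rose in both gavages, in control mice by as much as Cxcl1. It ranged from 5.57 to 9.08 (median 7.21) in palm oil clamped mice and from 3.45 to 6.69 (median 4.89) in palm oil basal mice, and 6 of 9 clamped mice lay above all basal mice. In control mice it ranged from 6.47 to 9.13 (median 7.56) clamped and from 3.64 to 5.35 (median 4.17) basal, with no overlap. The rise was 2.46 ± 0.46 (5.50-fold, adjusted p = 0.000334, limma) in palm oil mice and 3.18 ± 0.52 (9.04-fold, adjusted p = 5.77e-05) in control mice. Cxcr5, its receptor, differed by -0.18 ± 0.12 in palm oil mice and 0.02 ± 0.13 in control mice, and the B cell markers measured (4) averaged 0.865 to 1.45 in palm oil clamped, 1.19 to 1.76 in palm oil basal, 1.07 to 1.49 in control clamped and 1.34 to 1.61 in control basal mice. Of these 4, Cd79a and Cd79b, the signalling chains of the B cell receptor, fell in palm oil mice (-0.51 ± 0.16 and -0.45 ± 0.14, adjusted p = 0.0454 and 0.0361, limma), none passed in control mice, and all 4 differences were below 0 in both gavages. Their part in the Cxcl13 result was not tested.

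Cxcl12, the stromal ligand of Cxcr4 that retains marrow cells and lymphocytes, went the other way. It ranged from 7.37 to 8.43 (median 7.93) in palm oil clamped mice and from 7.87 to 8.84 (median 8.52) in palm oil basal mice. Its values in control mice ranged from 7.72 to 8.14 (median 7.89) clamped and from 7.84 to 8.62 (median 8.42) basal. The groups overlapped in both gavages. Its difference was -0.54 ± 0.13 (adjusted p = 0.00453, limma) in palm oil mice and -0.40 ± 0.14 (adjusted p = 0.0811) in control mice, and the 2 differences were not shown to differ (interaction -0.14 ± 0.19). In control mice the difference was -0.12 against the basal mice numbered under 44 and -0.60 against those numbered 44 or higher. In palm oil mice these values were -0.49 and -0.63.

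Of the 3 interferon-induced ligands, Cxcl11 fell in palm oil mice, and none passed in control mice. Cxcl11, whose C57BL/6 allele is known to carry a frameshift, was 2.99 to 4.14 (median 3.36) in palm oil clamped mice and 3.37 to 5.11 (median 4.33) in palm oil basal mice, a difference of -0.82 ± 0.26 (adjusted p = 0.0465, limma), and in control mice it differed by -0.59 ± 0.30 (adjusted p = 0.253). This call stood close to the threshold and was lost in 16 of 32 fits that left out 1 array, with adjusted p up to 0.103. In control mice the Cxcl11 difference was -1.38 against the basal mice numbered under 44 (adjusted p = 0.00603, limma) and 0.00425 against those numbered 44 or higher. Cxcl10 differed by 1.04 ± 0.43 in palm oil mice and 1.08 ± 0.49 in control mice and Cxcl9 by 0.69 ± 0.44 and 0.91 ± 0.49, and neither passed (adjusted p = 0.161 to 0.432). Of 14 other interferon-stimulated genes measured, none rose in either comparison, against 3.76% of all genes in palm oil and 4.66% in control mice. In palm oil mice 2, Ifit2 and Psmb9, fell, against 3.8% of all genes. At an unadjusted p under 0.05 there were 5 of the 14 in palm oil and 2 in control mice. Over all 22180 genes there were 4120 and 4645.

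Of the remaining CXC ligands, Cxcl14, an epithelial chemokine, differed by 0.20 ± 0.26 in palm oil mice and 0.82 ± 0.29 in control mice (adjusted p = 0.774 and 0.0733, limma). The membrane-bound scavenger ligand Cxcl16 differed by 0.10 ± 0.14 and 0.25 ± 0.16. Neither passed the test.

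**Figure D2:**
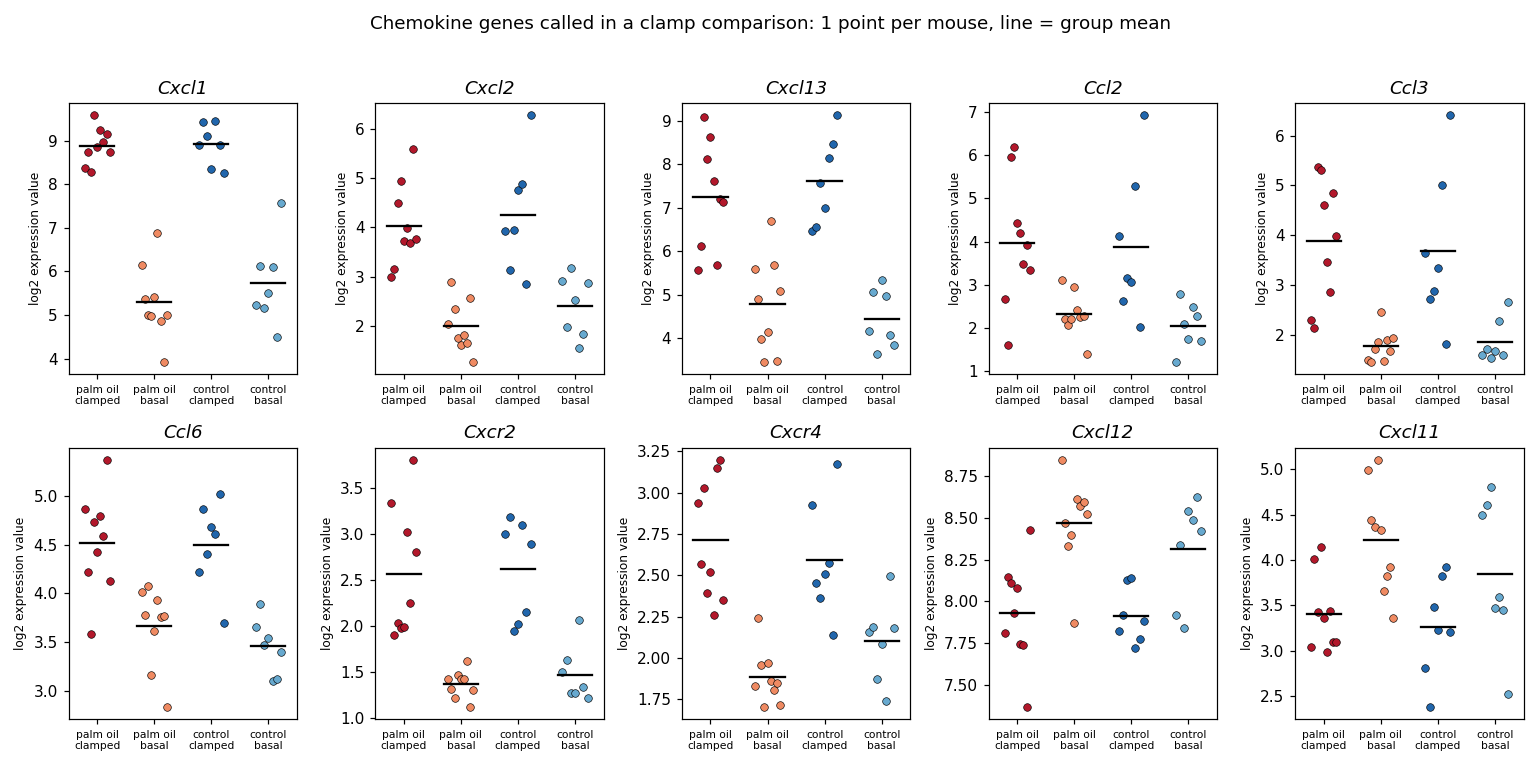
Log2 expression value of each mouse (1 point per mouse, line at the group mean) for the 10 genes that passed the test in a clamp comparison, in the order palm oil clamped, palm oil basal, control clamped and control basal; each panel has its own scale. Cxcl1 is at 8.26 or higher in all 16 clamped mice and at 7.56 or lower in all 16 basal mice, while Ccl2 and Ccl3 spread widely among clamped mice.

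Among the 4 ligands grouped as monocyte attractants, Ccl2 rose and Ccl7, Ccl8 and Ccl12 did not pass. Ccl2, Ccl7 and Ccl12 act through Ccr2, whereas mouse Ccl8 is known chiefly as a ligand of Ccr8. Ccl2 ranged from 1.61 to 6.18 (median 3.91) in palm oil clamped mice and from 1.40 to 3.12 (median 2.26) in palm oil basal mice. In control mice the gene ranged from 2.02 to 6.93 (median 3.15) clamped and from 1.22 to 2.79 (median 2.09) basal. The lowest clamped mice lay within the basal range, and 7 of 9 palm oil and 5 of 7 control clamped mice lay above it. The rise was 1.65 ± 0.50 (3.14-fold, adjusted p = 0.0361, limma) in palm oil mice and 1.85 ± 0.57 (3.59-fold, adjusted p = 0.0354) in control mice. Both calls were close to the threshold. Leaving out 1 array at a time, the palm oil call was lost in 11 of 32 fits (adjusted p up to 0.092) and the control call in 6, and without control clamped replicate 7 the control difference was 1.34 (adjusted p = 0.121). Without the 12 arrays over 6 in acinar markers the differences were 1.74 and 1.90 (adjusted p = 0.322 and 0.266), and without basal animals 44 and above 1.48 and 1.86 (adjusted p = 0.201 and 0.237), in palm oil and control mice. Ccl7, a close relative of Ccl2, differed by 0.58 ± 0.29 and 0.82 ± 0.33 in palm oil and control mice (adjusted p = 0.272 and 0.125).

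Of 11 other inflammatory CC ligands, Ccl3 and Ccl6 rose in both comparisons. Ccl3, a macrophage and neutrophil product that binds Ccr1, ranged from 2.14 to 5.36 (median 3.99) in palm oil clamped mice and from 1.46 to 2.46 (median 1.72) in palm oil basal mice. In control mice it ranged from 1.82 to 6.41 (median 3.35) clamped and from 1.53 to 2.66 (median 1.68) basal. The highest basal mouse lay above the lowest clamped mice in both gavages. Its rise was 2.10 ± 0.44 (4.29-fold, adjusted p = 0.00132, limma) in palm oil mice and 1.82 ± 0.50 (3.54-fold, adjusted p = 0.0149) in control mice, and without control clamped replicate 7 the control rise was 1.37 (adjusted p = 0.0528). Without the 12 arrays over 6 in acinar markers it was 2.37 in palm oil and 2.00 in control mice (adjusted p = 0.0623 and 0.162), and without basal animals 44 and above it was 2.08 in control mice (adjusted p = 0.103).

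Ccl6, a macrophage ligand of rodents, moved less but more evenly. It ranged from 3.58 to 5.37 (median 4.59) in palm oil clamped, 2.84 to 4.07 (median 3.76) in palm oil basal, 3.70 to 5.02 (median 4.61) in control clamped and 3.10 to 3.89 (median 3.47) in control basal mice. All but 1 clamped mouse of each gavage lay above all its basal mice. The rise was 0.86 ± 0.19 (1.82-fold, adjusted p = 0.00245, limma) in palm oil mice and 1.04 ± 0.21 (2.06-fold, adjusted p = 0.00119) in control mice. It was 0.81 in palm oil mice without the 12 arrays over 6 in acinar markers (adjusted p = 0.121) and 0.82 in control mice without basal animals 44 and above (adjusted p = 0.0937).

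The T cell and macrophage attractants Ccl4 and Ccl5 and the macrophage ligand Ccl9 had positive differences that did not pass. Ccl4 differed by 1.03 ± 0.42 in palm oil mice and 1.39 ± 0.48 in control mice, and Ccl5 by 0.73 ± 0.40 and 1.13 ± 0.45. Ccl9 differed by 0.48 ± 0.16 and 0.54 ± 0.18 (adjusted p = 0.0657 and 0.0613, limma). The eosinophil attractant Ccl24 differed by -0.15 ± 0.20 and -0.53 ± 0.22. None of the 4 homeostatic and mucosal CC ligands measured passed. Ccl25, a thymic and gut ligand, differed by 0.01 ± 0.17 and 0.18 ± 0.19. Ccl27a differed by -0.47 ± 0.17 in palm oil mice (adjusted p = 0.0803, limma) and -0.20 ± 0.19 in control mice. Its dimmer probe set differed by -0.03 and -0.10.

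Among the 6 CXC receptors, Cxcr2 and Cxcr4 rose. Cxcr2, the neutrophil receptor of the ELR ligands, ranged from 1.90 to 3.80 (median 2.25) in palm oil clamped mice and from 1.13 to 1.62 (median 1.43) in palm oil basal mice, with no overlap. Its values in control mice ranged from 1.95 to 3.18 (median 2.89) clamped and from 1.23 to 2.07 (median 1.34) basal, with 1 basal mouse inside the clamped range. The rise was 1.20 ± 0.21 (2.29-fold, adjusted p = 0.000166, limma) in palm oil mice and 1.14 ± 0.24 (2.20-fold, adjusted p = 0.0014) in control mice, where it was 1.19 without the 12 arrays over 6 in acinar markers (adjusted p = 0.0692).

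Cxcr4, the receptor of Cxcl12, ranged from 2.26 to 3.20 (median 2.57) in palm oil clamped mice and from 1.70 to 2.24 (median 1.85) in palm oil basal mice, with no overlap. In control mice the gene ranged from 2.14 to 3.17 (median 2.51) clamped and from 1.74 to 2.50 (median 2.16) basal, with overlap. The rise was 0.83 ± 0.14 (1.78-fold, adjusted p = 5.35e-05, limma) and 0.49 ± 0.15 (1.40-fold, adjusted p = 0.0379) in palm oil and control mice. Cxcr4 was thus higher and its ligand Cxcl12 lower in palm oil clamped than in palm oil basal mice. Without control clamped replicate 7 the control difference of Cxcr4 was 0.39 (adjusted p = 0.12). It was 0.73 without the 12 arrays over 6 in acinar markers (adjusted p = 0.0535) and 0.52 without basal animals 44 and above (adjusted p = 0.174).

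Counting genes whose clamped and basal values did not overlap gave 4 of 49 higher in palm oil mice (Cxcl1, Cxcl2, Cxcr2 and Cxcr4), against 0.866% of all genes. In control mice it gave 2 (Cxcl1 and Cxcl13), against 1.39% of all genes. No member was lower without overlap in either.

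None of the 9 CC receptors passed the test. At an unadjusted p under 0.05 there was 1 of them in palm oil mice and 0 in control mice, against 4120 and 4645 of all 22180 genes. Ccr1, a receptor of Ccl3, differed by 0.06 ± 0.14 in palm oil mice and 0.05 ± 0.16 in control mice. Ccr2, the monocyte receptor of Ccl2, differed by -0.04 ± 0.16 and 0.27 ± 0.18. The fractalkine receptor Cx3cr1, found on monocytes and some macrophages, differed by -0.03 ± 0.15 and -0.27 ± 0.17, and its ligand Cx3cl1 by -0.10 ± 0.14 and 0.18 ± 0.15. With signals this low, a difference in these receptors may lie below what the arrays can show.

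Some markers of the cells that carry these receptors differed between clamped and basal mice as well, and others did not. Over all genes, 3.76% rose in palm oil mice and 4.66% in control mice. Of 13 neutrophil markers 6 rose in each gavage: S100a8, S100a9, Lcn2, Csf3r, Retnlg and Mmp8. The mean of the 13 ranged from 3.05 to 3.65 in palm oil clamped, 1.91 to 2.21 in palm oil basal, 2.91 to 3.59 in control clamped and 1.79 to 2.58 in control basal mice. S100a8 rose by 3.85 ± 0.32 and Lcn2, which hepatocytes also make in the acute phase, by 4.40 ± 0.33 in palm oil mice (adjusted p = 2.82e-10 and 4.91e-11, limma). Ly6g, a surface marker of mouse neutrophils, stayed at 0.574 to 1.81 over all arrays, and the granule genes Elane, Mpo, Camp, Ltf and Ngp did not pass.

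Of 9 Kupffer cell markers 4 rose in each gavage, led by the scavenger receptor Marco (1.65 ± 0.30 in palm oil and 1.62 ± 0.34 in control mice), while Clec4f, Vsig4, Cd5l and C1qa did not pass. Of 7 monocyte markers, which include Ccr2 (not called), 2 rose in each, and of 7 hepatocyte markers 2 rose in each as well. Among 6 sinusoidal endothelial markers 1 rose and 1 fell in each gavage. Among 6 stellate cell markers 1 rose and 1 fell in palm oil mice and none passed in control mice. Among 4 cholangiocyte markers 1 rose in each. Over all genes 3.8% fell in palm oil and 4.09% in control mice. The 9 T or NK cell and 4 dendritic cell markers measured gave no call. At an unadjusted p under 0.05 there were 2 T or NK cell markers in palm oil mice and 1 in control mice. Over all 22180 genes, 4120 and 4645 were under that threshold. The part of any of these cells in the chemokine differences was not tested.

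Genes that induce chemokines and restrain that induction rose with them. Of 20 measured, 12 rose in each gavage and none fell, with a median difference of 0.95 in both, beside -0.02 over all genes. In palm oil mice 3.76% of all genes rose and 3.8% fell, and in control mice 4.66% and 4.09%. The list was drawn up with earlier results of these data known. The interleukin-1 receptor Il1r1 rose to 9.16 to 9.73 in palm oil clamped mice, against 6.49 to 7.94 in palm oil basal mice, and to 9.14 to 9.66 in control clamped mice, against 6.56 to 7.71 in control basal mice. Its ligand Il1b rose by 2.40 ± 0.25 in palm oil mice and 2.65 ± 0.29 in control mice (adjusted p = 3.48e-08 and 9.47e-08, limma).

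The receptor of interleukin-17, Il17ra, rose by 1.10 ± 0.18 and 1.60 ± 0.20. The NF-kappaB feedback genes Tnfaip3 (1.88 ± 0.31 and 1.64 ± 0.35) and Nfkbiz (1.46 ± 0.18 and 1.17 ± 0.20) rose in both, as did Zfp36 and Zfp36l1, which speed the decay of cytokine messages. Tnf itself differed by 1.11 ± 0.41 and 1.06 ± 0.46 and Il6 by 0.56 ± 0.21 and 0.23 ± 0.23 and did not pass.

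**Figure D3:**
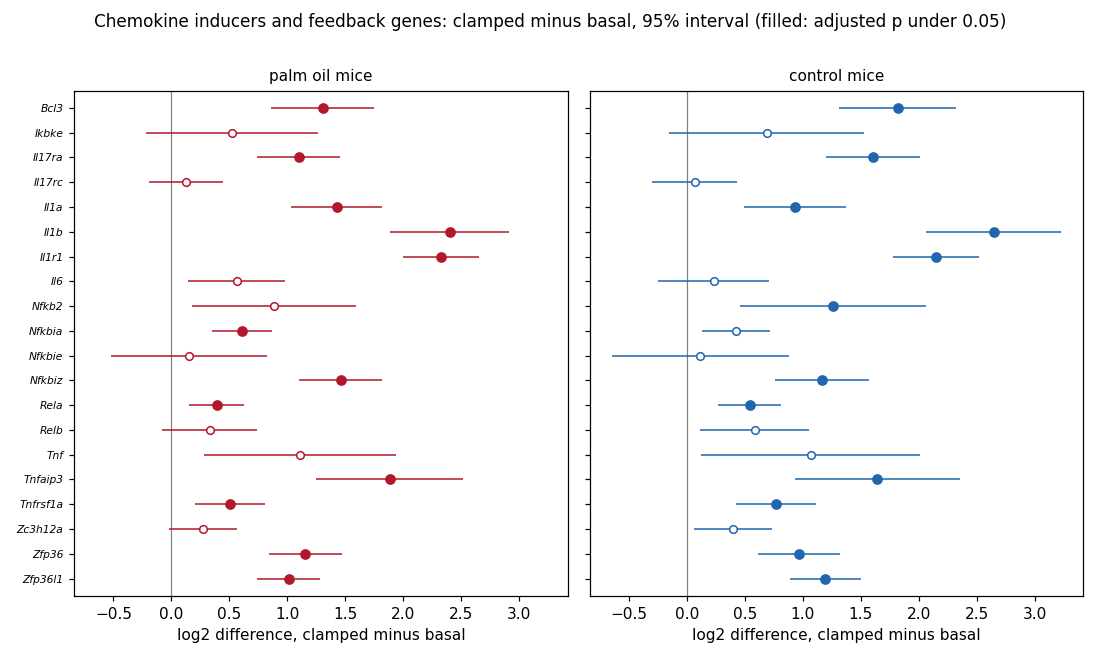
Clamped minus basal log2 difference of the 20 measured genes that induce chemokines or restrain their induction, in palm oil mice (left) and control mice (right), with 95% intervals from limma; filled points have an adjusted p under 0.05. In each panel 12 points are filled, all to the right of 0, and Il1b and Il1r1 lie above 2 in both.

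Downstream of the receptors, 2 of 23 signalling genes rose and 1 fell in each gavage, counts near the 3.76% and 3.8% of all genes in palm oil mice and the 4.66% and 4.09% in control mice. Rgs2, which shortens G-protein signals, rose in both (0.70 ± 0.15 in palm oil and 0.56 ± 0.17 in control mice), and the other calls were Rgs1 up and Plcb3 down in palm oil mice and Elmo1 up and Gnai1 down in control mice. Of 12 atypical receptors and relatives, Ccrl2 alone rose in each gavage. This gene, whose protein binds chemerin without signalling, was 3.53 to 4.57 in palm oil clamped mice, against 2.26 to 3.15 in palm oil basal mice, and 2.68 to 5.56 in control clamped mice, against 2.24 to 3.07 in control basal mice.

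The clamped mice were not alike. Cxcl1 lay between 8.26 and 9.59 in all 16 of them, whereas Ccl2, Ccl3, Ccl4, Ccl5, Cxcl9 and Cxcl10 were near basal in some and far above it in others. Control clamped replicate 7 held the highest value of its group for 13 of the 24 genes above the median gene. It stood 4.9 above the control basal mean for Ccl2, 4.5 for Ccl5 and 4.2 for Cxcl9, and yet only 2.5 for Cxcl1, the lowest of its group. Palm oil clamped replicates 3 and 4 stood 3.6 and 3.9 above the palm oil basal mean for Ccl2, while replicates 1 and 2 stood at 0.4 and -0.7.

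Ccl2 and Ccl3 varied together within the clamped groups. Over the 9 palm oil clamped mice Pearson's r was 0.884 (exact permutation p = 0.00104, adjusted 0.00347 over 10 relations) and Spearman's rho 0.867 (exact permutation p = 0.00451, adjusted 0.015). Over the 7 control clamped mice r was 0.989 (exact permutation p = 0.000397, adjusted 0.00198) and rho 0.964 (exact permutation p = 0.00278, adjusted 0.0139). Without the 2 mice farthest from the median of Ccl2, r was 0.807 in palm oil clamped and 0.918 in control clamped mice, so that the relation held in both.

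Ccl2 and Cxcl10 also varied together in palm oil clamped mice, with r = 0.978 (exact permutation p = 4.68e-05, adjusted 0.000468), rho = 0.933 (exact permutation p = 0.00075, adjusted 0.0075) and r = 0.964 without the 2 farthest mice. In control clamped mice r was 0.939 (exact permutation p = 0.00377, adjusted 0.00942) and rho 0.821 (exact permutation p = 0.0341, adjusted 0.0852). There r was 0.514 without the 2 farthest mice, and the relation rests on them.

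Ccl2 and Cxcl1 gave no such relation, with r = 0.309 and rho = 0.383 in palm oil clamped and r = -0.325 and rho = -0.214 in control clamped mice (adjusted exact permutation p = 0.52 to 0.828). Ccl2 and Cxcr2 had r = -0.248 and rho = -0.2 in palm oil clamped and r = 0.491 and rho = 0.143 in control clamped mice (adjusted exact permutation p = 0.455 to 0.87). The mean of the neutrophil markers and Cxcr2 had r = 0.103 and rho = 0.0167 in palm oil clamped mice (adjusted exact permutation p = 0.787 and 0.982) and r = 0.762 and rho = 0.786 in control clamped mice (exact permutation p = 0.0319 and 0.048, adjusted 0.0638 and 0.096). All these pairs were picked after the values had been seen, and values of 1 array share its RNA and normalisation.

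**Figure D4:**
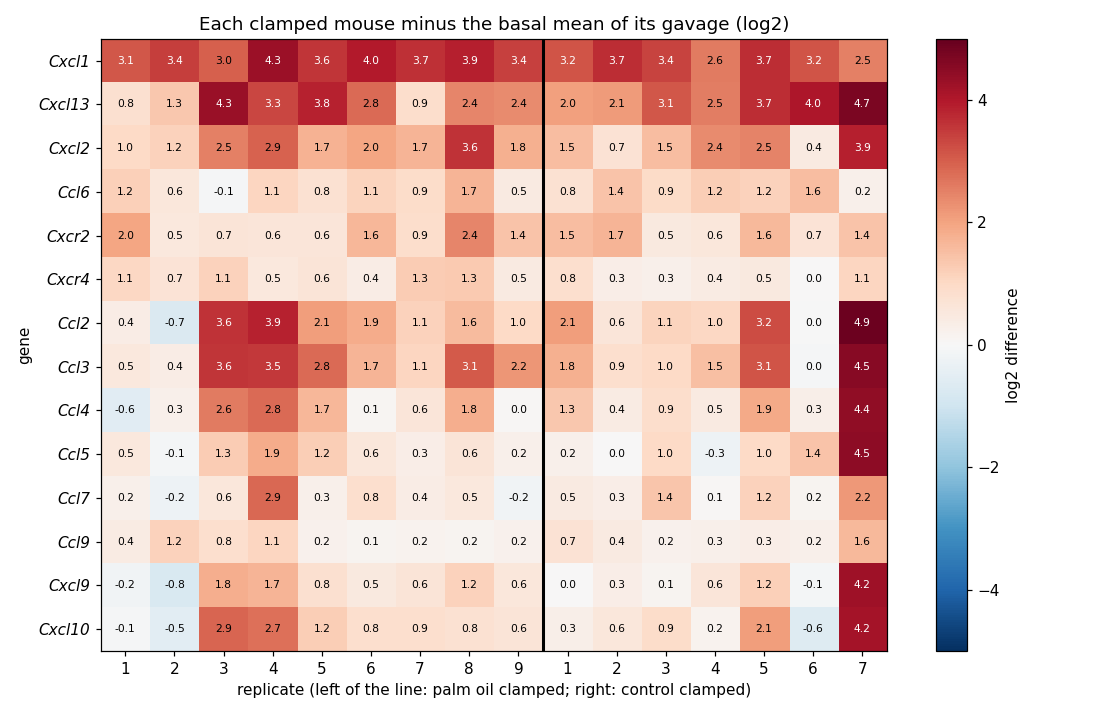
Log2 value of each of the 16 clamped mice minus the basal mean of its gavage, for 14 genes (rows) and the palm oil clamped (left of the line) and control clamped (right) replicates. The row of Cxcl1 lies between 2.5 and 4.3. Within each group, Ccl2, Ccl3, Ccl4, Ccl5, Cxcl9 and Cxcl10 are highest in palm oil replicates 3 and 4 and in control replicate 7. The other mice are graded, some near 0 and some high, such as control replicate 5 at 3.2 for Ccl2 and 3.1 for Ccl3.

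The palm oil question was whether the gavage changed the family in clamped or in basal mice. None of the 49 genes passed the test in clamped mice or in basal mice, and none passed for the interaction, which asks whether the palm oil difference changed under the clamp; over all genes the share called was 0% in each of these 3 limma comparisons. At an unadjusted p under 0.05 there was 1 member in clamped mice, 1 in basal mice and 0 for the interaction. Over all genes these shares were 3.52%, 5.11% and 3.49%. The exact rank sum test also called 0 in clamped and in basal mice. With so few mice, that test can call a gene only where many genes separate fully or nearly so. Without overlap, 2 of all genes were higher and 1 lower in basal mice, and 0 higher and 2 lower in clamped mice. Its 0 therefore says little about the gavage.

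The differences of the 49 genes lay between -0.38 and 0.38 in clamped mice and between -0.45 and 0.50 in basal mice. The intervals set what these numbers of mice could show. For Cxcl1, palm oil minus control was -0.03 in clamped mice (95% interval -0.70 to 0.64) and -0.45 in basal mice (-1.12 to 0.22), and for Ccl2 it was 0.09 (-1.0 to 1.18) and 0.28 (-0.81 to 1.37). Differences as large as the ends of these intervals were therefore not shown to be absent.

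The smallest p in clamped mice belonged to Cxcr5, the follicular B cell receptor, at -0.28 ± 0.12 (adjusted p = 1, limma), followed by the dendritic cell ligand Ccl17 at 0.38 ± 0.18 and Ccl24 at 0.36 ± 0.21. In basal mice it belonged to Cxcr6, the receptor of Cxcl16 on liver NK and T cells. Cxcr6 ranged from 2.41 to 3.27 (median 2.69) in palm oil basal mice and from 1.99 to 3.33 (median 2.31) in control basal mice. The groups overlapped over most of their range, and the difference was 0.40 ± 0.16 (adjusted p = 0.96, limma). Cxcr3, the receptor of Cxcl9 to Cxcl11, and Cx3cl1 followed at 0.29 ± 0.15 and 0.28 ± 0.14.

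For the interaction the smallest p belonged to Ccl17 (0.45 ± 0.26), Cxcr4 (0.34 ± 0.20) and Cxcl14 (-0.62 ± 0.39), each with an adjusted p of 1. The larger rise of Cxcr4 after palm oil and the larger difference of Cxcl14 after water were thus not shown to differ between the gavages.

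**Figure D5:**
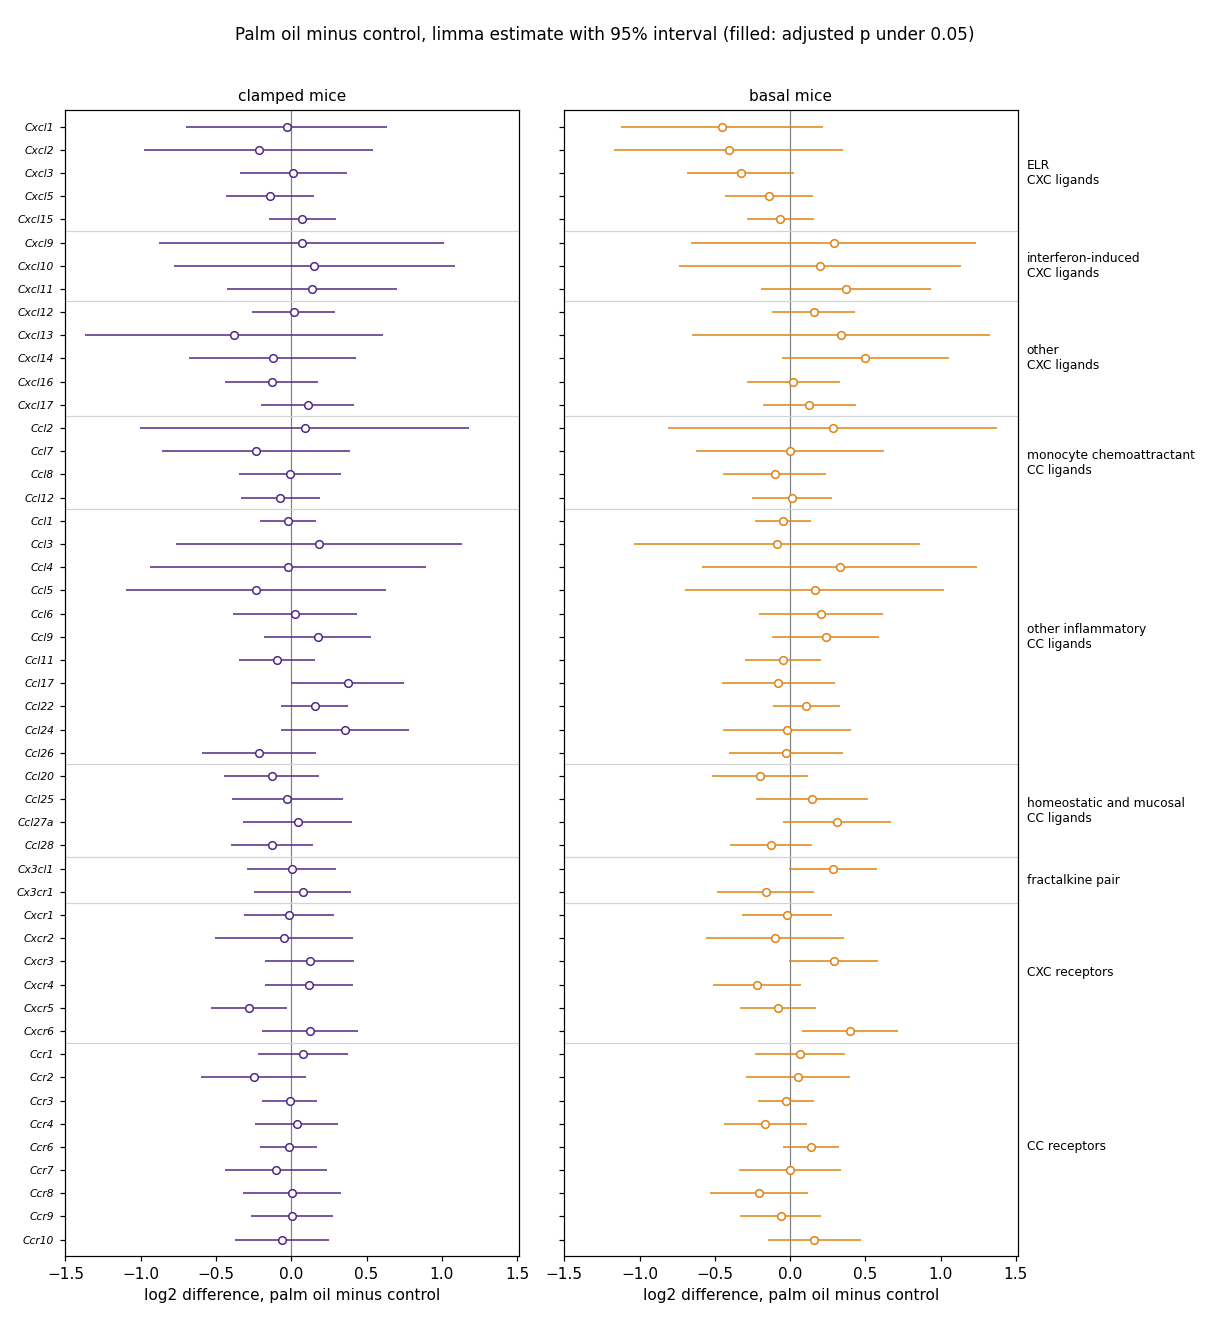
Palm oil minus control log2 difference of each of the 49 genes in clamped mice (left) and basal mice (right), with 95% intervals from limma, grouped by role; a filled point would have an adjusted p under 0.05. No point is filled, and all estimates lie between -0.45 and 0.50.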

How the data were processed

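Per the submitters' processing notes, the authors' deposited log2 values are RMA output, and the software was Affymetrix Expression Console 1.3.0.187; RNA was extracted on miRNeasy columns with DNase and amplified with a whole-transcript kit, per the labels' protocols. RMA corrects background, normalises between arrays and compresses low values towards the background. Of 41345 probe sets, 23521 carried 1 symbol, and a gene with several was represented by the brightest on average over the arrays (22180 genes). Of the 49 members, 1 (Ccl27a) had 2 such probe sets.

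Groups came from the sample titles. limma 3.58.1 (lmFit, eBayes; R 4.3.3) was fitted to all 32 arrays with 1 mean per group (28 residual degrees of freedom, 5 contrasts), with Benjamini-Hochberg adjustment over all genes and a threshold of 0.05. Every adjusted p not called a permutation p comes from limma. It is from this fit unless arrays left out, a block or a fit over all probe sets is named beside it. The functions were tested on simulated data. Array numbers limit the precision. Alternatives covered normalisation, filters, priors, weights, blocks, acinar markers, animal number, an exact rank sum test and each array left out.

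Members were chosen by name and gene lists from general knowledge, both with earlier results of these data known. Genes named with values were those past the threshold in any contrast, a preset list of well-known members, the 5 members with the highest mean signal and, where none passed, the 3 with the smallest p; others were named where a role needed them. Promoter sequences came from RefSeq. Same-numbered mice did not deviate together (median r = 0.00932 for same-numbered and -0.00174 for other pairs), so replicate numbers were not taken as pairs.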

Additional observations from a re-analysis of the deposited data

Results flagged for a closer look

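Of 116 sets of values (29 named genes in 4 groups) examined for an array far from the rest of its group by Dixon's test, 16 held one, where chance gives about 1 in 20. Control clamped replicate 7 accounted for 5 of them. Its values were 6.64 for Ccl4 (other mice of its group 2.52 to 4.11), 8.66 for Ccl5 (3.93 to 5.62), 8.39 for Ccl9 (6.99 to 7.50), 2.71 for Ccr2 (0.971 to 1.63) and 9.13 for Cxcl9 (4.78 to 6.06). Each was the highest value of its group.

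The other 2 among clamped mice were Ccl7 at 4.89 in palm oil clamped replicate 4 (others 1.79 to 2.89) and Cx3cl1 at 2.27 in control clamped replicate 1 (1.15 to 1.58).

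Among palm oil basal mice, replicate 5 was high in Ccl3 at 2.46 (others 1.46 to 1.94), Ccr1 at 2.28 (0.825 to 1.44) and Cxcr5 at 1.91 (1.35 to 1.60). Replicate 2 was high in Cxcr4 at 2.24 (1.70 to 1.97), replicate 4 in Ccl17 at 1.85 (0.850 to 1.33) and replicate 8 in Ccr2 at 1.83 (1.10 to 1.46), while replicate 9 was low in Ccl5 at 2.96 (4.08 to 5.07). In control basal mice, Cxcl5 was 1.72 in replicate 4 (others 1.02 to 1.22) and Cxcr6 was 3.33 in replicate 1 (1.99 to 2.40).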

How the results depend on the processing

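The palm oil minus control and interaction counts of members were 0 under every alternative run, and no difference of a named gene changed sign while called. Cxcl1 and Cxcl13 kept their calls in both clamp comparisons under every alternative run.

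The 8 genes that rose in control mice were 5 in the exact rank sum test, 3 without basal animals numbered 44 or higher, 3 without arrays over 6 in acinar markers, and 5 to 10 when each array was left out. The 8 that rose in palm oil mice were 4 without arrays over 6 in acinar markers, and 7 to 10 with each array left out. The 0 that fell in control mice became 1 with only genes above the median gene, with a threshold of 0.1, with the split at animal 44 as a block, and without the animals numbered 44 or higher, and 0 to 1 with each array left out. The 2 that fell in palm oil mice became 1 in the exact rank sum test and 1 over every row of the table (chosen after seeing the data). They became 3 without acinar arrays (with Cxcr6), and 3 without animals 44 or higher and with a threshold of 0.1 (each with Ccl27a), and 1 to 3 with each array left out. Fewer arrays lower the power of these fits, and other causes were not tested.

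With the replicate number as a replicate block, 8 rose in palm oil mice and 9 in control mice, where Cxcl14 joined (0.82, adjusted p = 0.0323, limma), and it changed no other call.

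Over all genes, the 1033 that rose in control mice became 590 (exact rank sum), 588 (split as a block), 396 (without animals 44 or higher), 678 (acinar level as a covariate) and 541 (without acinar arrays), and the 907 that fell became 530 (exact rank sum) and 452 (without acinar arrays). In palm oil mice the 835 that rose became 529 without animals 44 or higher and 290 without acinar arrays, and the 843 that fell became 446 without acinar arrays. Between the gavages, the count in basal mice was 1 in place of 0 without acinar arrays.

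Low signal limits the 25 genes below the median gene. It also limits Cxcr2, Ccl3 and, in palm oil mice, Cxcl2, whose basal medians lay below 1.83, so that their rises can be understated. Ccl2, Cxcr4 in control mice and Cxcl11 in palm oil mice had calls near the threshold.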

Other observations

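Some ligands could not be named through a probe set of 1 gene, because their probe sets carry several symbols, and they are described here as families. In a limma fit over all 41345 probe sets, the 13 probe sets of the Ccl19 family, ligands that draw T and dendritic cells through Ccr7, had clamped minus basal differences of 0.34 to 0.72 in palm oil mice and 0.39 to 0.69 in control mice, all positive, with no probe set called (lowest adjusted p = 0.0683 and 0.075). The 9 probe sets of the Ccl21 family, which bind the same receptor, differed by 0.35 to 0.54 and 0.02 to 0.31, with none called (lowest adjusted p = 0.19 and 0.635). Of the 11 probe sets of the Ccl27 family, 2 were called in palm oil mice and 1 in control mice (lowest adjusted p = 0.00147 and 0.0157), with differences from -0.59 to 0.00467 and from -0.52 to 0.22. These probe sets carry 5 to 10 symbols each and were placed in a family by a chemokine symbol among them, so other listed genes may add to their signal. Several hold identical values, some of them those of the Ccl27a probe set (-0.47 in palm oil and -0.20 in control mice). The counts are therefore not of separate genes or of independent measurements. Palm oil minus control gave no call in any of the 3 families.

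The ligands lie in clusters, and neighbours differed in their calls. On chromosome 5 the order is Cxcl5, Cxcl3, Cxcl15, Cxcl1, Cxcl2, Cxcl9, Cxcl10, Cxcl11 and Cxcl13, and Cxcl1, Cxcl2 and Cxcl13 rose in both gavages, Cxcl11 fell in palm oil mice and the others did not pass. On chromosome 11, where 14 members lie, Ccl2, Ccl3 and Ccl6 rose in both gavages and the others did not pass.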
